A study of Homo sapiens with 6 samples.

Results

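The 84 genes described here were the long noncoding RNA genes with a LINC number that were expressed in the medulloblastoma line D283, an established line of human tumour cells. They were the symbols of the form LINC plus digits with a summed raw count of 300 or more across the 6 libraries, out of 572 such symbols and 50883 genes in the table. The summed level chose them, not the difference between the groups, so their levels are a description and only the difference was tested. Of the 572 symbols, 197 had no count in any library. The OTX2 knockout group comprised 3 D283 cultures transduced with a GFP-marked lentivirus carrying a guide RNA against OTX2, a homeobox transcription factor gene of the embryonic brain and retina. The control group comprised 3 D283 cultures transduced with a GFP-marked lentivirus carrying a non-targeting guide. Total RNA was collected from all cultures after 7 days. All 6 cultures came from 1 cell line, the labels give no further allele or agent, and neither the number of guides nor the nuclease nor the share of edited cells is stated. P-values therefore measure the spread between cultures of that line, and the labels do not say whether each culture was infected separately.

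A LINC number is a placeholder given to a long intergenic noncoding RNA before its function is known. Such RNAs are transcribed by RNA polymerase II and are mostly spliced, and they include structural scaffolds, decoys for RNA-binding proteins, precursors of microRNAs (miRNAs) and transcripts of enhancers. Some later proved to encode a short protein. Of the 84 genes, 81 were matched to GENCODE release 29, 18 of them through an older symbol, and they lay on 21 chromosomes. The annotation called 50 of them lincRNA, 9 protein-coding, 8 processed transcripts and 6 antisense RNAs, with 4 pseudogenes, 2 sense-overlapping and 2 bidirectional-promoter RNAs. Their longest transcripts had a median of 2622 bases, between 370 and 21221, and 12 had a single exon.

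Total counts were between 60561438 and 62166870 in the OTX2 knockout libraries and between 54540645 and 61662466 in the control libraries. Levels are given as CPM, counts scaled to a common library size, and a count of 3 was worth 0.0471 to 0.0563 CPM. OTX2 was still read in the OTX2 knockout libraries at 765, 824 and 887 CPM, against 1002, 979 and 909 CPM in control libraries. These groups did not overlap, and the log2 fold change was -0.22 ± 0.06 (SE, n = 3 each, edgeR adjusted p = 0.00646). A guide can disrupt the protein and leave the transcript in place, so the count checks the labels only in part. All 5 markers of D283 were detected, MYC, OTX2, CRX and OTX2-AS1 with lower and NEUROD1 with higher counts in OTX2 knockout cells. Of 21 markers of blood, endothelium, epithelium, fibroblasts, oligodendrocytes and astrocytes, 11 were tested, and 5 were higher and 1 was lower in OTX2 knockout. Over all tested genes 21.2% were called higher and 18.5% lower. CD3E was at 0 in all 6 libraries. The epithelial markers summed to between 4.14 and 4.53 CPM in OTX2 knockout and between 0.199 and 0.406 CPM in control libraries, and KRT5 made up nearly all of the OTX2 knockout sum. The endothelial markers summed to between 5.06 and 5.90 CPM in OTX2 knockout and between 2.22 and 3.32 CPM in control. Fibroblast and mural markers summed to between 15.2 and 16.3 CPM in OTX2 knockout and between 14.1 and 15.9 CPM in control. Blood markers summed to between 0.442 and 0.707 CPM in OTX2 knockout and between 0.457 and 0.732 CPM in control, and astrocyte markers to between 0.111 and 0.220 CPM in OTX2 knockout and between 0.0847 and 0.126 CPM in control. The part of these differences in the results below was not tested.

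The LINC RNAs shifted moderately and in both directions. In bulk RNA, fewer cells expressing a gene and less RNA per cell cannot be told apart. In OTX2 knockout cells 23 of the 84 were called higher (27.4%) and 14 lower (16.7%) at an adjusted p under 0.05, and 47 were not called. Among all tested genes 39.7% were called, 21.2% higher and 18.5% lower. Among tested genes with at least 300 counts 44.9% were called, 22.1% higher and 22.8% lower, so the 44.0% of LINC RNAs called was near the background. The median log2 fold change of the 84 was 0.07, with quartiles at -0.18 and 0.29. It was 0.0062 over all tested genes and -0.013 over tested genes with at least 300 counts, the quartiles of which were -0.15 and 0.17. The 2 groups of libraries did not overlap for 49 LINC RNAs (58.3%), against 49.2% of all tested genes and 53.9% of those with at least 300 counts. Scaling on library totals alone, without the trimmed mean of M values, gave 28 higher and 6 lower calls. The share of calls that were higher was 62.2% with the trimmed mean scaling and 82.4% without it, and over all genes it was 53.4% and 71.9%.

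**Figure D1:**
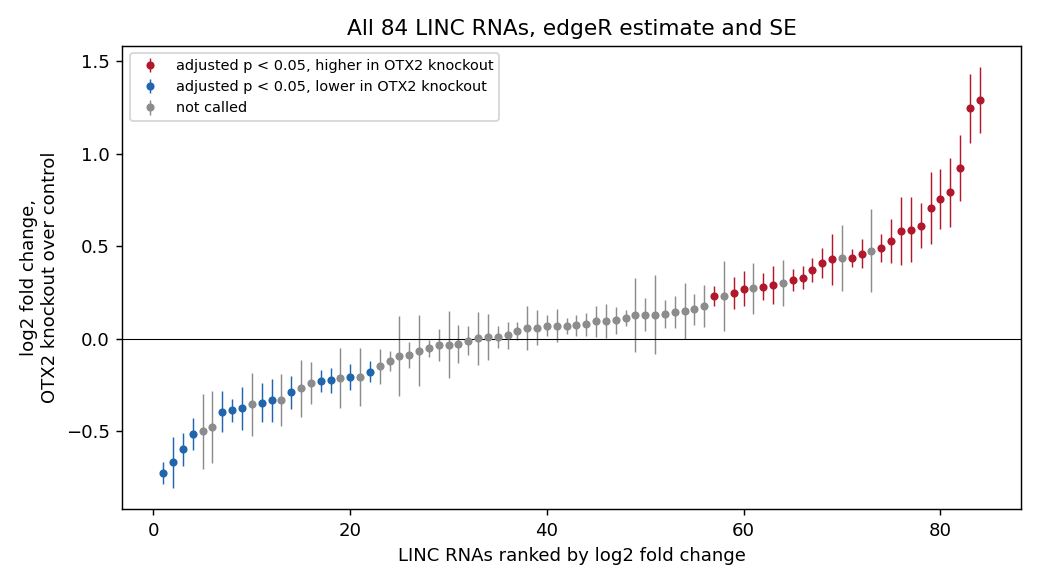
All 84 LINC RNAs ranked by log2 fold change (x axis, rank; y axis, log2 fold change of OTX2 knockout over control). Points are edgeR estimates with their SE from 3 libraries per group; 23 are called higher and 14 lower, and the estimates run between -0.73 and 1.29.

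Few LINC RNAs changed past 2-fold, and the shares past 1.5-fold were near those of all tested genes. The log2 fold changes of the 84 ran between -0.73 and 1.29. Those of all tested genes ran between -2.31 and 9.31, but a range widens with the number of genes. Only 2 of the 84 LINC RNAs were called with more than a 2-fold change (2.38%), against 6.82% of all tested genes and 4.22% of those with at least 300 counts. Past 1.5-fold, 8 were called higher (9.52%), against 10.2% of all tested genes and 7.89% of those with at least 300 counts. Lower past 1.5-fold were 3 (3.57%), against 2.72% and 2.46%. Among the 70 tested LINC symbols under 300 counts, 25.7% were called higher and 7.14% lower, against 18.4% and 3.72% of all tested genes under 300 counts. Among the 24 LINC RNAs above 10 CPM, 6 were called higher and 7 lower, where 18.1% of all tested genes above 10 CPM were higher and 28.4% lower. Among the 25 below 2 CPM, 7 were called higher and 1 lower, where 26.2% of tested genes with at least 300 counts and under 2 CPM were higher and 7.24% lower. The threshold of 300 counts bore on this, since 7 members had fewer than 150 counts in the control group and 4 of these were called higher. These 4, LINC01132, LINC00173, LINC00944 and LINC00893, reached 300 counts mainly through the OTX2 knockout group, where they were high. With those 7 and the 1 member under 150 counts in the OTX2 knockout group left aside, 19 of 76 were called higher and 14 lower. LINC00449, LINC00893 and LINC00944 were just inside the threshold with 303, 304 and 304 counts, and LINC00310, LINC01088 and LINC00852 just outside it with 295, 293 and 278. LINC00310 had 41, 41 and 36 counts in OTX2 knockout and 48, 59 and 70 in control libraries.

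**Figure D2:**
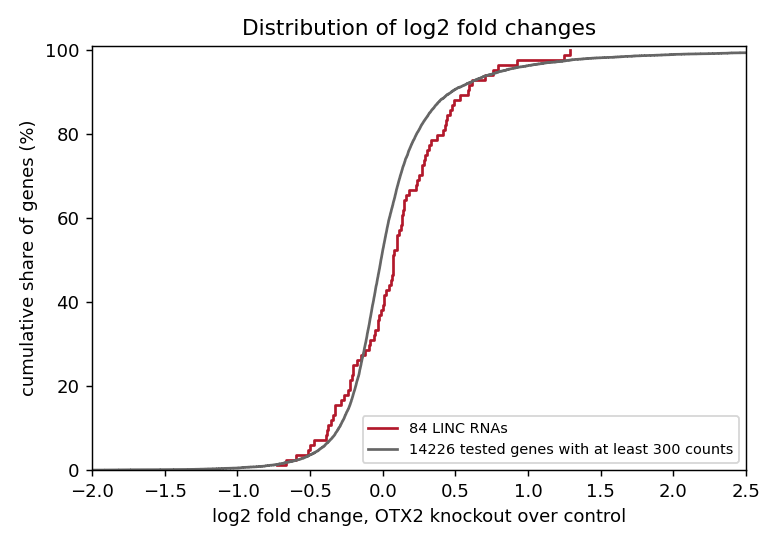
Cumulative share of genes (y axis, %) by log2 fold change of OTX2 knockout over control (x axis) for the 84 LINC RNAs and for 14226 tested genes with at least 300 counts. The LINC RNA curve is wider between its quartiles, to the left of the other at the lower (-0.18 and -0.15) and to its right at the upper quartile (0.29 and 0.17). Its full range is narrower, -0.73 to 1.29 against -2.31 to 8.93, but a range widens with the number of genes. The axis is cut at -2 and 2.5.

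The largest rise was that of LINC01132, an intergenic RNA on chr1:234724042-234736720 (GRCh38, + strand). Its level was 1.84, 1.54 and 1.71 CPM in OTX2 knockout libraries, from 117, 95 and 108 counts, and 0.867, 0.610 and 0.60 CPM in control libraries, from 48, 36 and 32 counts. Every OTX2 knockout library was above every control library, and the log2 fold change was 1.29 ± 0.18 (SE, adjusted p = 4.12e-05). With 320 counts in the OTX2 knockout group and 116 in the control group, it passed the count threshold through the group where it was high. LINC00632 followed, with 2.29, 2.34 and 1.78 CPM in OTX2 knockout and 1.17, 0.694 and 0.844 CPM in control libraries. Again the groups did not overlap, and the log2 fold change was 1.25 ± 0.19 (SE, adjusted p = 8.26e-05). These were the only LINC RNAs past edgeR's glmTreat test against a 1.5-fold change, with adjusted p of 0.00319 and 0.00646, and both were still called when any of the 6 libraries was left out. That test called 6.55% of all tested genes.

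LINC00632 is the locus from which CDR1as is produced, a circular RNA of neurons known for binding the miRNA miR-7. Gene counts do not separate linear from circular RNA, and no value for the circular RNA is given here. The longest annotated transcript, of 21221 bases, held 69 matches to GTCTTCC, the complement of the miR-7 seed read on the transcript strand. All 69 lay in exon 5, and 38 of them lay in the span of CDR1, a gene annotated on the opposite strand at chrX:140783578-140784366. This was 3.25 matches per kb. The next highest density among the 81 annotated LINC RNAs was 0.958 per kb, in LINC00592, and 14 held any match. No label or header says whether the authors' annotation counted exon 5. The mature miR-7 (RefSeq, GRCh38.p14, seed in capitals) and the densest 150 bases of the transcript, chrX:140783737-140783886 on the + strand of GRCh38 with its 8 seed matches in capitals, read:
hsa-miR-7-5p: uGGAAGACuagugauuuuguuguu
LINC00632 exon 5: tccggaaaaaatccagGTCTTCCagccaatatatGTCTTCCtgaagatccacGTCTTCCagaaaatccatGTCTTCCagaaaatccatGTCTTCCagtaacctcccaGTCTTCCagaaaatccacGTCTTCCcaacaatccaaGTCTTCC

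The next 8 rises in size were of RNAs near or below 3 CPM. LINC00173 had 1.27, 1.79 and 1.42 CPM in OTX2 knockout and 0.812, 0.779 and 0.769 CPM in control libraries, a log2 fold change of 0.92 with an SE of 0.18 (adjusted p = 0.000729). LINC00944 had 1.11, 1.0 and 1.07 CPM in OTX2 knockout and 0.506, 0.677 and 0.657 CPM in control libraries (log2 fold change 0.79, adjusted p = 0.00329). For both RNAs the groups were clearly apart, though LINC00944 rested on 62 to 71 counts per OTX2 knockout library and 28 to 40 per control library. LINC00159 had 3.09, 2.15 and 2.07 CPM in OTX2 knockout and 1.44, 1.39 and 1.5 CPM in control libraries (log2 fold change 0.76, adjusted p = 0.00182). Here OTX2 knockout replicate 1 stood above the other 2, which still lay above all controls. LINC01122 averaged 2.46 ± 0.0851 CPM in OTX2 knockout and 1.61 ± 0.115 CPM in control (SD, n = 3 each, log2 fold change 0.61, adjusted p = 0.00101). A pseudogene on the opposite strand with 10.2% of its count shares exon bases with LINC01122, so a part of its reads is uncertain.

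LINC00106 and LINC00893 rested on weaker ground. LINC00106, in the pseudoautosomal region whose sequence is present on X and Y, had 3.16, 2.43 and 1.82 CPM in OTX2 knockout and 1.39, 1.80 and 1.74 CPM in control libraries. The lowest OTX2 knockout library was just above the highest control, and the call (log2 fold change 0.58, adjusted p = 0.0193) was lost without OTX2 knockout replicate 1 or without control replicate 1. LINC00893 had 1.24, 0.986 and 0.900 CPM in OTX2 knockout and 0.650, 0.593 and 0.675 CPM in control libraries (log2 fold change 0.71, adjusted p = 0.0089). Its exons overlap those of CXorf40A on the opposite strand, and 53.8% of its transcript matches another gene at 95% identity or more, LINC00894 the best of them, so its reads cannot be assigned with certainty.

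The smallest adjusted p among the rises was that of LINC00963, which falls outside the rule for named genes and was chosen after its values were seen. It had 54.6, 56.5 and 56.7 CPM in OTX2 knockout and 39.6, 41.4 and 42.9 CPM in control libraries, a log2 fold change of 0.44 with an SE of 0.05 (adjusted p = 3.83e-06). The groups were separated by far more than their spread. The 13 called rises outside the 10 largest had log2 fold changes between 0.23 and 0.49, the 4 called falls outside the 10 largest between -0.23 and -0.18, and the 47 LINC RNAs that were not called between -0.50 and 0.48.

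**Figure D3:**
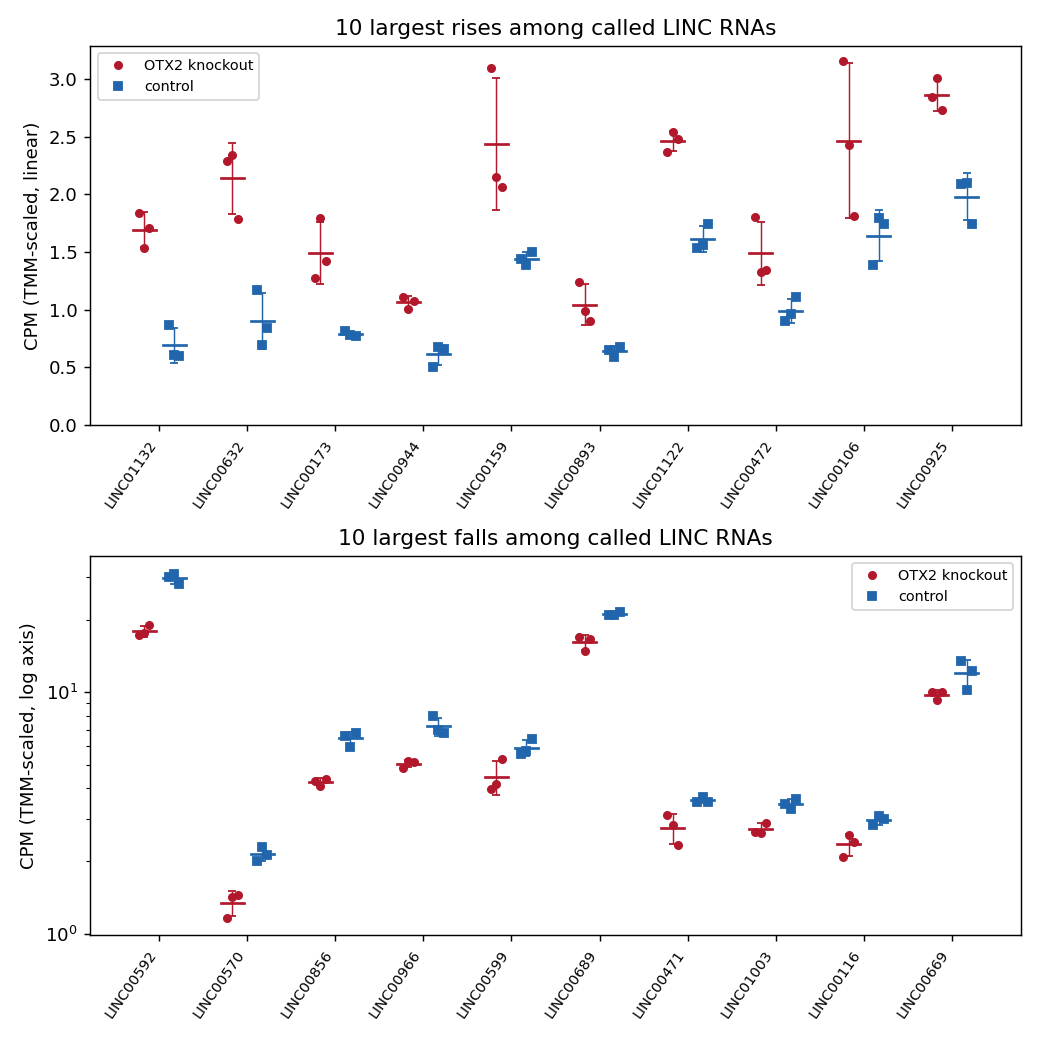
CPM of the 10 LINC RNAs with the largest rises (top, linear axis) and the 10 with the largest falls (bottom, log axis) among those called with no overlap between groups. Points are libraries, bars the mean ± SD of 3; LINC01132 and LINC00632 have all OTX2 knockout points above 1.5 CPM and all control points below 1.2 CPM.

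LINC00592 had the largest fall and the smallest adjusted p of the 84. It is annotated as a lincRNA at chr12:52164115-52223804 (GRCh38, + strand). The keratin gene KRT80 starts inside this span, on the opposite strand. The level of LINC00592 was 17.3, 17.6 and 19 CPM in OTX2 knockout libraries and 30.2, 30.8 and 28.0 CPM in control libraries. The groups were far apart, with a log2 fold change of -0.73 with an SE of 0.06 (n = 3 each, adjusted p = 1.25e-07), although the test against a 1.5-fold change gave an adjusted p of 0.0514. LINC00570 had 1.16, 1.42 and 1.45 CPM in OTX2 knockout and 2.0, 2.29 and 2.12 CPM in control libraries, a log2 fold change of -0.67 with an SE of 0.14 (adjusted p = 0.00135). LINC00570 was first described in human cell lines as ncRNA-a5, an RNA with enhancer-like activity on its neighbour ROCK2. LINC00856 had 4.30, 4.09 and 4.37 CPM in OTX2 knockout and 6.57, 5.96 and 6.81 CPM in control libraries (log2 fold change -0.60, adjusted p = 7.15e-05). No OTX2 knockout library reached the lowest control library for either RNA.

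LINC00689 averaged 16.1 ± 1.10 CPM in OTX2 knockout and 21.1 ± 0.386 CPM in control (SD, n = 3 each, log2 fold change -0.39, adjusted p = 0.000136). VIPR2, the gene of a receptor for vasoactive intestinal peptide, shares exon bases with it on the opposite strand, holds 22.0% of its count and was lower too, at 3.11 CPM in OTX2 knockout and 5.12 CPM in control (adjusted p = 1.75e-05). Reads of the 2 genes cannot be told apart without strand. LINC00471 (log2 fold change -0.37, adjusted p = 0.0186), LINC01003 (-0.34, 0.016) and LINC00669 (-0.29, 0.0185) fell by little. Each was no longer called under scaling on library totals alone. LINC00471 also lost its call without OTX2 knockout replicate 3 or control replicate 2, LINC01003 without OTX2 knockout replicate 1 or 2 or control replicate 3, and LINC00669 without OTX2 knockout replicate 2 or control replicate 1.

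The LINC RNAs with the most counts were little altered. LINC00657, now called NORAD, made up 34.1% of all counts of the 84 genes, and the top 3 together made up 58.0%. NORAD is a cytoplasmic RNA known for binding RNA-binding proteins and for a role in genome stability. Its level was 603, 612 and 615 CPM in OTX2 knockout and 569, 583 and 590 CPM in control libraries. The groups did not overlap, but the difference was small (log2 fold change 0.07 ± 0.04, SE, adjusted p = 0.214) and was called only under library totals alone (0.15, adjusted p = 0.00558). A transcript with NORAD-like sequence, OVCH1-AS1, and others match 86.2% of NORAD at 95% identity or more. Per kb of exon, NORAD was at 114 ± 1.2 CPM in OTX2 knockout and 109 ± 2.05 CPM in control (SD, n = 3 each), the highest level per length of the 81 annotated LINC RNAs. The next highest per kb were LINC00674, chosen after its values were seen, at 28.8 ± 0.478 CPM in OTX2 knockout and 24.5 ± 0.783 CPM in control, and LINC00662, at 25.2 ± 1.01 CPM in OTX2 knockout and 26.1 ± 0.26 CPM in control. LINC00674 was called higher (log2 fold change 0.23, adjusted p = 0.00321), and LINC00662 was not called (-0.05, adjusted p = 0.414). LINC00674 is annotated as a transcribed pseudogene, and 50% of its longest transcript matches SMURF2 at 95.3% identity, so a part of its reads is uncertain. LINC00478 was at 19.3 ± 0.803 CPM per kb in OTX2 knockout and 18.3 ± 1.61 CPM per kb in control, and LINC00592 at 12.3 ± 0.609 CPM per kb in OTX2 knockout and 20.4 ± 1.0 CPM per kb in control. LINC00674 and LINC00662 lay close together and NORAD far above them. LINC00667 had 67.3 ± 0.936 CPM in OTX2 knockout and 62.2 ± 1.39 CPM in control (SD, n = 3 each, adjusted p = 0.0531), and it was called under upper-quartile scaling, library totals alone or a filter that asked for 1 CPM in 3 libraries. LINC00665 had 49.8 ± 1.29 CPM in OTX2 knockout and 48.5 ± 2.05 CPM in control (adjusted p = 0.545).

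NORAD held 15 matches to TGTANATA, the Pumilio recognition element, searched on the transcript strand. This was 2.81 per kb, against a next highest of 0.889 among the 81 annotated LINC RNAs, of which 21 held any. The following 150 bases, chr20:36049713-36049862 on the - strand of GRCh38, show what such elements look like in the most abundant RNA of the set, with 2 of them in capitals:
LINC00657 (NORAD): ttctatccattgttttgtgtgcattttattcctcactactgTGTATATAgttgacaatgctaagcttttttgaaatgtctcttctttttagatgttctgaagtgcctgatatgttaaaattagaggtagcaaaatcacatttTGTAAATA

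Of the 81 LINC genes matched to the annotation, 7 enclose miRNA genes on their own strand, 10 miRNA genes in all. The 3 unmatched genes were not searched, and of these LINC00669, which fell, is named MIR924HG in RefSeq as a host of MIR924. Hairpins are cut from such host transcripts, and each mature miRNA recognises targets mainly through its seed, bases 2 to 8. Total RNA counts of the host do not measure the mature miRNA, and no miRNA level is given here. Of the 7 annotated hosts 2 were called higher, 2 lower and 3 were not called, where 21.2% of all tested genes were higher and 18.5% lower. The sequences of the miRNAs of LINC00966, LINC00599 and LINC00338 are not shown here. The mature 5p forms from LINC00925, LINC00461, LINC00472 and LINC00478 (RefSeq, GRCh38.p14, seed in capitals) show which of these hosts could yield the same miRNA, since miR-9-5p has the same sequence from LINC00925 and LINC00461, and miR-30a-5p and miR-30c-5p of LINC00472 share their seed:
hsa-miR-9-5p (LINC00925 and LINC00461): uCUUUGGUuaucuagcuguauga
hsa-miR-30a-5p (LINC00472): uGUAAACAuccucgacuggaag
hsa-miR-30c-5p (LINC00472): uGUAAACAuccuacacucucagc
hsa-miR-99a-5p (LINC00478): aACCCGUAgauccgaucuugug
hsa-let-7c-5p (LINC00478): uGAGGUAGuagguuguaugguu
hsa-miR-125b-5p (LINC00478): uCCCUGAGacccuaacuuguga

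Hosts of miR-9 and miR-124, miRNAs known for promoting neuronal differentiation, were among the LINC RNAs. The called miR-9 host of this set rose and both miR-124 hosts of this set fell. Genes outside the set were not searched for miR-124. LINC00925, now MIR9-3HG, encloses MIR9-3 and had 2.84, 3.01 and 2.73 CPM in OTX2 knockout and 2.09, 2.10 and 1.74 CPM in control libraries. It rose with no overlap (log2 fold change 0.53 ± 0.12, SE, adjusted p = 0.00268). LINC00461, which encloses MIR9-2, had 2.65, 2.55 and 2.5 CPM in OTX2 knockout and 2.37, 2.35 and 2.08 CPM in control libraries. The libraries did not overlap but the gene was not called (log2 fold change 0.18 ± 0.11, SE, adjusted p = 0.242). C1orf61, which has no LINC number in the table, is the host of MIR9-1 and was chosen after its values were seen. It had 127, 134 and 139 CPM in OTX2 knockout and 78.4, 73.2 and 77.3 CPM in control libraries (log2 fold change 0.80, adjusted p = 8.7e-09), with the groups far apart.

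LINC00966, now MIR124-2HG, encloses MIR124-2 and had 4.87, 5.19 and 5.16 CPM in OTX2 knockout and 7.96, 6.98 and 6.79 CPM in control libraries. It fell with no overlap (log2 fold change -0.51 ± 0.09, SE, adjusted p = 0.000248). LINC00599, which encloses MIR124-1, had 3.97, 4.17 and 5.28 CPM in OTX2 knockout and 5.54, 5.71 and 6.40 CPM in control libraries. The highest OTX2 knockout library came close to the lowest control, and the call (log2 fold change -0.39, adjusted p = 0.0104) was lost without OTX2 knockout replicate 1. The nearest protein-coding gene to LINC00966 is BHLHE22, a neuronal transcription factor gene 207 kb away. It averaged 1.47 ± 0.219 CPM in OTX2 knockout and 0.539 ± 0.105 CPM in control (SD, n = 3 each, log2 fold change 1.43, adjusted p = 3.82e-05), opposite to the host. No host difference was tested against another host's.

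LINC00472, the gene body of which holds MIR30A and MIR30C2, had 1.81, 1.33 and 1.34 CPM in OTX2 knockout and 0.903, 0.965 and 1.11 CPM in control libraries. The rise (log2 fold change 0.59, adjusted p = 0.014) was lost without OTX2 knockout replicate 1 and in DESeq2. LINC00478, now MIR99AHG and the host of MIR99A, MIRLET7C and MIR125B2, had 212, 215 and 229 CPM in OTX2 knockout and 223, 187 and 211 CPM in control libraries. The groups overlapped and it was not called (log2 fold change 0.08 ± 0.06, SE, adjusted p = 0.335). LINC00338, the small nucleolar RNA host SNHG20 that also encloses MIR6516, had 24.9 ± 0.840 CPM in OTX2 knockout and 23.7 ± 1.43 CPM in control (SD, n = 3 each, adjusted p = 0.343). Its exons overlap those of SEC14L1, which was called higher, at 55.8 CPM in OTX2 knockout and 40.0 CPM in control.

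**Figure D4:**
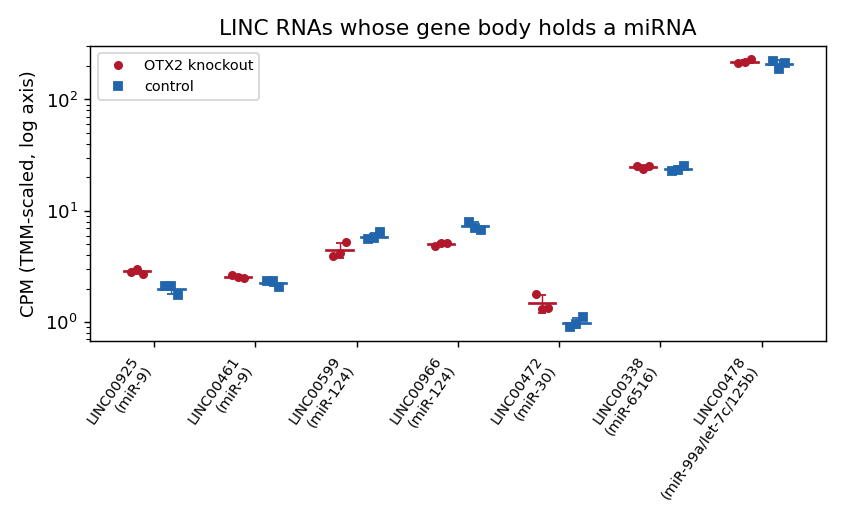
CPM (log axis) of the 7 annotated LINC RNAs that enclose miRNA genes on their own strand, OTX2 knockout to the left of control for each. Points are libraries and bars the mean ± SD of 3; LINC00925 and LINC00472 lie higher and LINC00599 and LINC00966 lower in OTX2 knockout, with no overlap.

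Some LINC symbols in the table are now known to encode short proteins, and 5 of 11 listed ones were members, of which 2 rose and 2 fell. Of all 11, 8 were tested, 4 of them higher and 2 lower, with a median of 0.16 on the log2 scale, against 21.2% higher, 18.5% lower and a median of 0.0062 over all tested genes. LINC00116 encodes mitoregulin (MTLN), a small protein of the mitochondrial inner membrane, and had 2.09, 2.57 and 2.40 CPM in OTX2 knockout and 2.82, 3.07 and 3.00 CPM in control libraries. LINC00493 encodes the mitochondrial protein SMIM26 and had 12.8, 14.3 and 14.4 CPM in OTX2 knockout and 17.1, 16.0 and 14.9 CPM in control libraries. Both fell with no overlap, by 0.33 and by 0.21 on the log2 scale (adjusted p = 0.0341 and 0.0297). Neither call was robust. That of LINC00116 was lost without OTX2 knockout replicate 1 or control replicate 2 or 3 and in DESeq2, that of LINC00493 without OTX2 knockout replicate 1 or control replicate 1 or 2, and both under library totals alone. LINC00998, which encodes the membrane protein SMIM30, was not called (6.03 ± 0.389 CPM in OTX2 knockout and 5.74 ± 0.395 CPM in control, SD, n = 3 each, adjusted p = 0.558).

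LINC00094, now BRD3OS, had 18.1, 17.2 and 16.9 CPM in OTX2 knockout and 14.5, 13.8 and 13.3 CPM in control libraries, and rose with no overlap (log2 fold change 0.33 ± 0.06, SE, adjusted p = 0.000469). Its exons overlap those of BRD3 on the opposite strand, which holds more counts than LINC00094 itself. LINC00086 was higher by 0.25 on the log2 scale (8.22 ± 0.418 CPM in OTX2 knockout and 6.90 ± 0.723 CPM in control, SD, n = 3 each, adjusted p = 0.033). This symbol matched no gene of the annotation, so overlaps could not be checked, and the call was lost without OTX2 knockout replicate 1 or 2 or control replicate 3 and in DESeq2. Of the 2 remaining LINC RNAs listed for a described role, LINC00467 averaged 7.27 ± 0.247 CPM in OTX2 knockout and 5.47 ± 0.323 CPM in control, and LINC00839 13.5 ± 0.483 CPM in OTX2 knockout and 11.1 ± 0.934 CPM in control (SD, n = 3 each). Both rose, by 0.41 and 0.28 on the log2 scale (adjusted p = 0.000871 and 0.00586). In all 18 entries of that list, 11 were tested, of which 5 rose and 1 fell. Their log2 fold changes had a median of 0.18, against 0.0062 over all tested genes, of which 21.2% were called higher and 18.5% lower.

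Since many LINC genes are transcribed close to protein-coding genes, each was set beside the nearest protein-coding start. For 57 such a start lay within 100 kb, and for 49 of them that gene was tested. Of these pairs 7 had both genes called, 5 in the same direction and 2 in opposite directions. The 5 of 7 (71.4%) was near the 68.2% (1271 of 1865 pairs) found for protein-coding genes and their own nearest protein-coding gene. LINC00570 and ROCK2, a kinase of the actin cytoskeleton whose start lies 45.7 kb away on the opposite strand, both fell. ROCK2 had 137, 135 and 143 CPM in OTX2 knockout and 178, 181 and 172 CPM in control libraries (log2 fold change -0.36, adjusted p = 1.53e-05). LINC00592 and the keratin gene KRT80 both fell as well, KRT80 to 3.36 ± 0.241 CPM in OTX2 knockout, against 4.45 ± 0.216 CPM in control (SD, n = 3 each, log2 fold change -0.41, adjusted p = 0.00388). KRT80 starts on the opposite strand inside the span of LINC00592, 27.9 kb from its start. LINC00888 and MCF2L2 fell by 0.22 and 0.27 on the log2 scale (adjusted p = 0.0158 and 0.00138).

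In the same direction upwards were LINC00984 with PLCB2, a phospholipase C gene, and LINC00094 with VAV2, a guanine nucleotide exchange factor gene. The annotation calls both LINC00984, now INAFM2, and LINC00094 protein-coding. LINC00984 had 25.6 ± 1.6 CPM in OTX2 knockout and 20.5 ± 0.154 CPM in control (SD, n = 3 each). PLCB2 had 5.95, 5.27 and 5.40 CPM in OTX2 knockout and 2.62, 3.00 and 2.72 CPM in control libraries. Its log2 fold change was 0.99, beside 0.32 for LINC00984. VAV2 rose by 0.15 on the log2 scale (adjusted p = 0.0428). In opposite directions, LINC00925 rose and POLG fell (log2 fold changes 0.53 and -0.20), and LINC00106 rose and SLC25A6 fell (0.58 and -0.20). Among the 20 called LINC RNAs with a start within 100 kb, 12 had a tested neighbour that was not called. Most tested genes were not called either, as 39.7% of them were called. The count of 5 same-direction pairs was 3 without OTX2 knockout replicate 1 and 3 without control replicate 2.

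**Figure D5:**
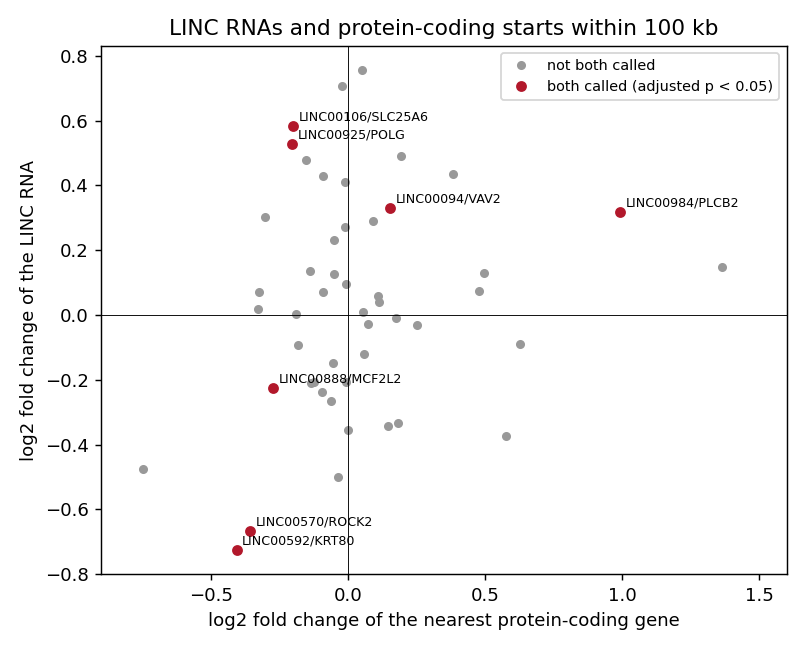
Log2 fold change (OTX2 knockout over control) of each LINC RNA (y axis) against that of the nearest protein-coding gene with a start within 100 kb (x axis), 49 pairs. The 7 named pairs have both genes called, 5 in quadrants of equal sign; the other pairs lie on both sides of 0.

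Of the LINC genes, 9 start within 2 kb of a protein-coding start on the opposite strand, 3 of them called. Among all tested genes 39.7% were called. LINC00476 averaged 3.25 ± 0.556 CPM in OTX2 knockout and 2.41 ± 0.288 CPM in control, LINC00893 1.04 ± 0.177 CPM in OTX2 knockout and 0.639 ± 0.0423 CPM in control, and LINC00894 7.07 ± 0.147 CPM in OTX2 knockout and 5.87 ± 0.774 CPM in control (SD, n = 3 each). All 3 rose (log2 fold changes 0.43, 0.71 and 0.27, adjusted p = 0.0225, 0.0089 and 0.0324). Their partners ERCC6L2, CXorf40A and CXorf40B were not called, with log2 fold changes of -0.09, -0.02 and -0.01, and the sign for CXorf40A and CXorf40B turned positive under some scalings or with a library left out. The difference between a LINC RNA and its partner was not tested. All 3 LINC genes overlap exons of the partner, and 57.6% of the LINC00894 transcript matches other genes at 95% identity or more. The call of LINC00476 was lost without OTX2 knockout replicate 1 or control replicate 2 or 3, and that of LINC00894 without any 1 of the OTX2 knockout replicates, without control replicate 2 or 3 and in DESeq2.

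Promoters were read on both strands for the letters TAATCC, the core that OTX2 and its relative CRX recognise, and for CAGATG, an E-box of neuronal bHLH factors; neither motif contains the other. RefSeq promoter sequence (GRCh38.p14), from 250 bases before to 50 after the start, was matched for 64 of the 84 genes. TAATCC occurred in 6 of them (9.38%), against 2234 of 35116 RefSeq promoters (6.36%), and CAGATG in 14 (21.9%), against 5161 (14.7%). By call, TAATCC occurred in 2 of 18 promoters of LINC RNAs that were higher and 0 of 9 of those that were lower, and CAGATG in 4 of 18 and 3 of 9. A match is a string of letters and no measure of binding. RefSeq starts can differ from the GENCODE starts used for the neighbours. The RefSeq start of LINC00592 lies inside the gene span given above. LINC00632 was the member with 2 copies of TAATCC, and LINC00592, the strongest fall, had none. Their promoters, at chrX:140709509-140709808 (+ strand) and chr12:52210680-52210979 (+ strand), are given with the matches, on either strand, in capitals:
LINC00632 promoter: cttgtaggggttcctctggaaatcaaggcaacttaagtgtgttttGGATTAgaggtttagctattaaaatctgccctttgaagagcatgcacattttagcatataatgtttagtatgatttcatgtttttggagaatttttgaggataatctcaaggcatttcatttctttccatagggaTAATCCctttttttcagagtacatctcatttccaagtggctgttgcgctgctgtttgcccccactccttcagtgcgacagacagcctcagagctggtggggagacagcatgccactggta
LINC00592 promoter: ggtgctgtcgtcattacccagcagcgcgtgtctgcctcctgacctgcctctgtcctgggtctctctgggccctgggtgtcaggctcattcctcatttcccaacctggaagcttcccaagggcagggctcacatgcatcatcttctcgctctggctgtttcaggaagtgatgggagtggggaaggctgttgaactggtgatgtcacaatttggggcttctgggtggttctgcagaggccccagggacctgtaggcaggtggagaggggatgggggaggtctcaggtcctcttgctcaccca

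Libraries of a group agreed closely for most LINC RNAs. The median coefficient of variation over the 84 was 5.83% in OTX2 knockout and 7.04% in control, and the highest was 31.9% for LINC01134 in OTX2 knockout and 30.6% for LINC00672 in control. OTX2 knockout replicate 1 was the highest OTX2 knockout library for 37 LINC RNAs (44.0%), against 32.3% of tested genes with at least 300 counts. Without it 17 LINC RNAs were called higher and 10 lower. Calls over all tested genes were fewer as well, 3373 higher and 2674 lower, against 3908 and 3404 with all libraries. The mitochondrial share of counts was 0.601, 0.571 and 0.531% in OTX2 knockout and 0.764, 0.449 and 0.440% in control libraries, and control replicate 1 was the library farthest from its group. Of the 84, 17 share exons with another gene that holds over 10% of their count. Without these 17, 18 were called higher and 13 lower. The 84 genes together took 0.185, 0.181 and 0.182% of all counts in OTX2 knockout libraries and 0.170, 0.162 and 0.170% in control libraries.

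Long noncoding RNAs without a LINC number were listed for comparison. Of 50 listed genes, 25 were tested, of which 10 rose and 4 fell, although only 2 of the falls were called without OTX2 knockout replicate 1 or under library totals alone. Their log2 fold changes had a median of 0.13, against 0.0062 over all tested genes. Of all tested genes 21.2% were called higher and 18.5% lower. The rises of CASC15, MIR22HG and LUCAT1 were larger than any among the LINC RNAs, which had at least 300 counts. Only MIR22HG met that threshold, with 513 counts, while CASC15 had 113 and LUCAT1 had 204. LINC symbols under 300 counts were not part of this comparison. CASC15 averaged 0.486 ± 0.0805 CPM in OTX2 knockout and 0.128 ± 0.0851 CPM in control, MIR22HG 2.13 ± 0.55 CPM in OTX2 knockout and 0.660 ± 0.114 CPM in control, and LUCAT1 0.836 ± 0.108 CPM in OTX2 knockout and 0.274 ± 0.00605 CPM in control (SD, n = 3 each). Their log2 fold changes were 1.94, 1.70 and 1.6 (adjusted p = 0.000695, 1.27e-05 and 6.39e-05). DANCR, a snoRNA host, rose by 1.24 on the log2 scale (18.5 ± 0.648 CPM in OTX2 knockout and 7.80 ± 0.122 CPM in control, adjusted p = 8.42e-10). OTX2-AS1, transcribed at the OTX2 locus on the opposite strand, had 8.05, 8.54 and 8.99 CPM in OTX2 knockout and 15.1, 12.1 and 13.2 CPM in control libraries, and fell with no overlap (log2 fold change -0.66, adjusted p = 1.84e-05). MIR17HG, the host of a miRNA cluster that promotes proliferation, fell by 0.33 on the log2 scale (adjusted p = 0.000217), and the nuclear RNA MALAT1 was not called (adjusted p = 0.514). The genes in this paragraph were chosen from the list after their values were seen.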

How the data were processed

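RNA of 6 D283 cultures was measured. The authors deposited a table of raw counts, 1 column for each library, and titles assigned the columns. Alignment with STAR to hg38 is named per the submitters' processing notes. The counter, annotation, strand setting and kit are not stated. Counts per library were between 54540645 and 62166870, and limits from counts cover counting error only. Some genes are not reported here.

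Counts were tested over the whole table with edgeR 4.0.16 in R 4.3.3 (filterByExpr, scaling by the trimmed mean of M values, glmQLFit and glmQLFTest). Benjamini-Hochberg adjustment ran over 18420 genes, and 0.05 was the threshold. The biological coefficient of variation was 5.30%, on 4 residual degrees of freedom. CPM values and their SD use the scaled library sizes, and per kb values divide by the union of exons. A gene is not called where its adjusted p is at or above 0.05.

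The LINC RNAs and the gene lists were chosen with earlier results of these data known. The rule for named genes took OTX2, the 10 largest rises and falls among called LINC RNAs without overlap between groups, the 5 with the highest CPM, listed LINC RNAs with a described role or peptide, hosts of miRNAs and called genes within 2 kb of an opposite protein-coding start, with that partner. Others are named as chosen after their values were seen, among them the LINC RNAs paired with a neighbour.

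Symbols were matched to GENCODE release 29 (GRCh38), older ones through RefSeq synonyms. Near-identical copies were sought with BLAST+ 2.17.0+ over at least 200 bases at 95% identity. On simulated data with 200 changed genes, the share that edgeR called in the comparison of OTX2 knockout with control was 41.3% at a 1.2-fold change, 83.7% at 1.5-fold, 89.4% at 2-fold and 97.9% at 4-fold. This ran on 17752 tested genes, and 13 of 162 calls were of unchanged genes. Alternatives were other scalings and filters, limma-voom (limma 3.58.1), glmTreat against 1.5-fold, DESeq2 1.42.0, a threshold of 0.01, other count thresholds for members, other distances to neighbours, and leaving out each library.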

Additional observations from a re-analysis of the deposited data

How the results depend on the processing

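The 23 higher calls were between 17 and 31 under the other scalings, filters, tests and member thresholds, and between 17 and 23 when a library was left out, except for 2 with glmTreat against a 1.5-fold change. The 14 lower calls were between 10 and 14 when a library was left out. They were 6 under library totals alone and 6 at an adjusted p under 0.01. Under edgeR's glmTreat they were 0, and with no fold requirement 46 of the 84 had an unadjusted p under 0.05, while DESeq2 gave 13 lower calls. For listed noncoding RNAs without a LINC number the 4 lower calls were 2 under library totals alone and between 2 and 4 when a library was left out, with 2 without OTX2 knockout replicate 1. Same-direction pairs, 5 of 7, were 10 of 15 within 250 kb and between 3 and 6 when a library was left out. OTX2 had the same log2 fold change under glmTreat, -0.22, with an adjusted p of 1. The sign turned for genes that were not called: LINC00662 was at 0.028 under library totals alone. CXorf40A was at 0.058 under library totals alone and between -0.096 and 0.028 when a library was left out, positive without control replicate 1 and without OTX2 knockout replicate 1. CXorf40B was at 0.0052 under upper-quartile factors, 0.067 under library totals alone, 0.0028 with the filter on 1 CPM and between -0.055 and 0.034 when a library was left out, positive without control replicate 2. Apart from the fewer libraries or stricter thresholds by construction, the cause was not tested. Library totals alone moved the median of all genes to 0.08. Over the 38 other named genes and all settings, 484 values kept their call and sign, 73 lost the call, 4 gained it and 8 changed sign. Depth limits the LINC RNAs near 1 CPM, such as LINC00944 with 28 to 71 counts per library. No paired analysis was possible because the labels number the libraries consecutively, so the groups share no replicate numbers.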
